A study of Mus musculus with 8 samples.

Results

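The comparison set the 4 Sl/Sl libraries against the 4 wild type libraries of the E11.5 aorta-gonad-mesonephros region with its vitelline and umbilical arteries, with cell type as a covariate, and asked which genes moved the same way with genotype in hematopoietic clusters and in endothelium. Its members were chosen by a rule on the fitted log2 fold changes of each cell type. Of 24015 genes in the count table, 13908 had enough counts to be tested. Of these, 6710 moved the same way with Sl/Sl in both cell types (3435 higher and 3275 lower), 6853 moved in opposite ways, and 345 had no reads in any library of one cell type. Among the 13563 genes with reads in both cell types, 49.5% therefore moved the same way. No gene passed an adjusted p of 0.1 in the additive edgeR test. The clearest shared difference lay at 1 place, an interval of chromosome 10 in which Kitl, Tmtc3, Cep290 and 4930430F08Rik were at 0 to 6 counts in every Sl/Sl library.

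Embryos were wild type or homozygous for Sl (Steel), which according to the study carries a deletion taking in the locus of Kitl. Embryos of 1 genotype were pooled, and 100 cells were sorted for each library. Clusters were sorted as Ter119- VE-Cadherin+ c-Kit+ cells and endothelium as Ter119- VE-Cadherin+ c-Kit- CD41- CD45- cells, with 2 libraries for each genotype of each cell type. The mutation was carried by every cell of the mutant embryo and not only by the sorted cells. The study calls the libraries biological replicates, but which of them shared a pool or a sorting experiment is not stated. The p-values therefore measure the spread between these 100-cell libraries, part of which may be technical. In such bulk samples, fewer cells of a type and less RNA per cell cannot be told apart.

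Kitl encodes Kit ligand, also called stem cell factor, a membrane-bound or shed cytokine that binds the receptor tyrosine kinase Kit. Kit signals through the phosphoinositide 3-kinase and the mitogen-activated protein kinase pathways, and in hematopoietic stem and progenitor cells, germ cells and melanocytes it is known for its part in survival and proliferation. In the embryonic aorta, hematopoietic clusters carry the receptor, and endothelium and other stromal cells make the ligand, so the sorted populations stand on opposite sides of the signal.

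Total counts per library ran from 8933236 to 13428214. The libraries carried the markers of their labels. The 8 endothelial markers summed to 5054 to 5720 CPM (counts per library total after TMM scaling) in endothelium and to 214 to 2167 CPM in clusters, and the 9 hematopoietic markers summed to 973 to 1339 CPM in clusters and 81.0 to 107 CPM in endothelium. Other cells' markers differed between libraries. The 8 mesenchymal markers ran from 264 to 4171 CPM, highest in Sl/Sl clusters replicate 2, and the 8 muscle markers were at 340 and 452 CPM in the Sl/Sl clusters against 10.3 to 40.2 CPM in the other libraries. The 8 germ cell markers summed to 367 CPM in wild type clusters replicate 1 and to 1.67 to 17.5 CPM in the others. Y-linked Eif2s3y was at 44.4 CPM in wild type clusters replicate 1, at 78.5 and 62.4 CPM in wild type endothelium and at 62.4 CPM in Sl/Sl endothelium replicate 1, and below 1 CPM in the other 4 libraries. Another Y-linked gene, Ddx3y, was at 3.45 CPM in Sl/Sl clusters replicate 1.

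Kitl was the first gene examined, since it checks the genotype labels. It lies on chromosome 10 of mm9 from 99478458 to 99563046 on the plus strand. In endothelium, Kitl was counted 1250 and 923 times in the wild type libraries and 6 and 2 times in the Sl/Sl libraries. In clusters it was counted 110 and 0 times in wild type and 1 and 3 times in Sl/Sl. The genotypes were apart in endothelium, as the labels say, while in clusters they overlapped, because wild type replicate 2 held no read of Kitl. Over all libraries the 12 Sl/Sl counts came to 0.533% of the wild type level per effective read (95% exact interval 0.275% to 0.932%, which covers counting error only). The additive log2 fold change of −6.65, with a standard error of 1.45, had an adjusted p of 1 from edgeR's quasi-likelihood test and of 2.0e-05 from DESeq2.

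Tmtc3 encodes an endoplasmic reticulum enzyme that adds O-linked mannose to cadherins, and had the smallest p of all 13908 genes. It lies 343 kb beyond Kitl, from 99906536 to 99949981 on the minus strand. Its counts were 587 and 59 in clusters and 899 and 905 in endothelium of the wild type, and 5 and 0 and then 5 and 4 in those of Sl/Sl. All 4 Sl/Sl libraries lay below all 4 wild type libraries, and the gap was of like size in both cell types, with log2 fold changes of −7.06 in clusters and −7.45 in endothelium. The additive value, −7.27 with a standard error of 1.03, had an adjusted p of 0.466 from edgeR and 3.1e-14 from DESeq2. The Sl/Sl counts came to 0.579% of the wild type level (95% exact interval 0.316% to 0.974%).

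Cep290 encodes a protein of the ciliary transition zone, and stands head to head with Tmtc3, from 99950923 to 100036289 on the plus strand. Its counts were 257 and 47 for wild type clusters, 78 and 111 for wild type endothelium and 4 and 0 for Sl/Sl clusters, with no read in either Sl/Sl endothelium library. In endothelium, the 0 counts allow up to 1.80% of the wild type level at 3 counts over the group. The additive log2 fold change was −7.27 (standard error 1.71), with adjusted p of 1 from edgeR and 0.0022 from DESeq2. 4930430F08Rik, from 100034908 to 100051893 on the minus strand, was counted 277 and 79 times in clusters and 15 and 239 times in endothelium of the wild type, and 4 and 1 times and 0 and 5 times in those of Sl/Sl. Its additive log2 fold change was −5.79 (standard error 1.55), with adjusted p of 1 from edgeR and 0.0067 from DESeq2. Its gene body overlaps that of Cep290 by 1382 bases on the other strand, and since the counting is not stated to use strand, reads from the shared stretch cannot be told apart.

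**Figure D1:**
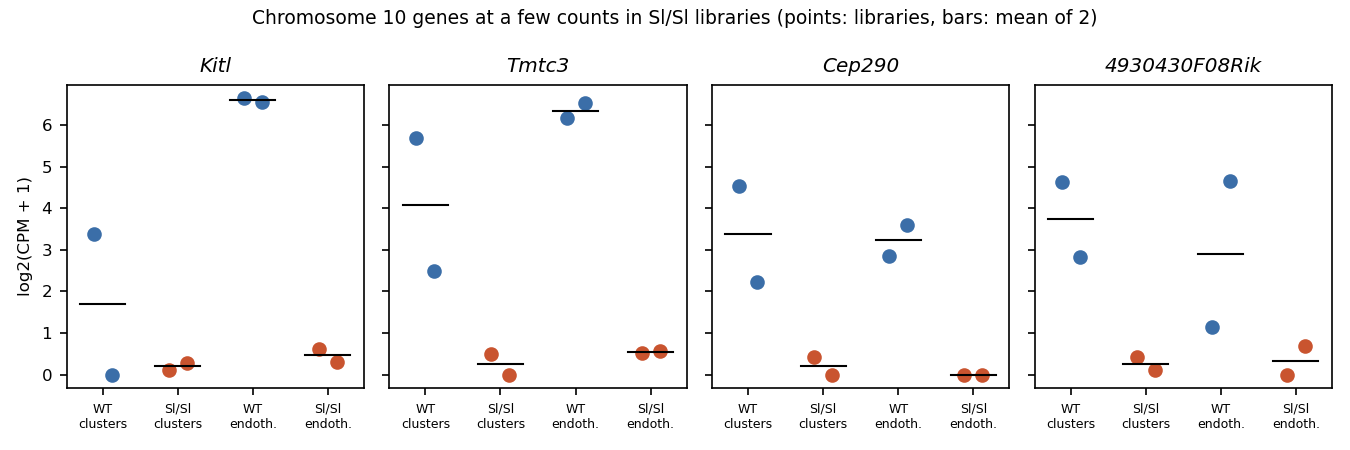
Level of Kitl, Tmtc3, Cep290 and 4930430F08Rik in each of the 8 libraries, as log2(CPM + 1), in wild type (blue) and Sl/Sl (red) clusters and endothelium (endoth.). Points are libraries and bars the mean of 2. All Sl/Sl points lie below 1 on this scale, and 1 wild type point, clusters replicate 2 for Kitl, lies at 0.

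In RefSeq (GRCm38.p6) the starts of Tmtc3 and Cep290 are 182 bases apart, and this stretch is shown because it lies upstream of 2 genes that were at a few counts together. It is chr10:100487366-100487547 of GRCm38.p6, plus strand, written toward Cep290, and the same letters occur once on chromosome 10 of mm9, from 99950000 to 99950181. The count table places the start of Cep290 further downstream, which leaves 941 bases between the genes in its annotation. Capitals mark the 1 match to CCAAT.
Tmtc3-Cep290: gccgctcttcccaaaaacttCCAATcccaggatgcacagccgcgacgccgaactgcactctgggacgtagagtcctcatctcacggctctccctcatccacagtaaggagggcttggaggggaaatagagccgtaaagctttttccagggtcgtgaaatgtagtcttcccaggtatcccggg
The 4 motifs searched, on both strands, were the CCAAT box, the GC box GGGCGG, the Ets motif CCGGAA and the TATA box TATAAA. The CCAAT box was found once, beginning at base 21, and the others had no match. Of 32851 RefSeq promoter windows cut to the same length, 27.3% held the CCAAT box, 26.5% the GC box, 8.26% the Ets motif and 8.12% the TATA box, so a match of this kind is common. The stretch was 56.0% G or C, with 10 CpG pairs, against medians of 52.2% and 4 over all windows. Of the 4 genes, 3 were in the RefSeq promoter table, and 4930430F08Rik was not.

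The 4 genes adjoin each other among detected genes and span 573 kb. The 6 listed genes between Kitl and Tmtc3 had no read in any library. Toward the centromere, the nearest gene with reads was Csl, 256 kb before Kitl. It held 13 to 23 counts in the wild type and 8 to 20 in the Sl/Sl libraries, which differed by −0.21 on the log2 scale with a standard error of 1.38. Csl is nearly a copy of the citrate synthase gene Cs, so its few counts are uncertain. Dusp6, 748 kb before Kitl, encodes a phosphatase of extracellular signal-regulated kinases, and ranged from 1488 to 3961 counts in the wild type and from 878 to 3055 counts in the Sl/Sl libraries, a difference of −0.12 on the log2 scale with a standard error of 0.32. On the other side, the next gene with more than 3 counts in any library was Nts, the neurotensin precursor, which begins 1892 kb past 4930430F08Rik. Nts was present in all 4 Sl/Sl libraries at 24 to 248 counts, so Sl/Sl libraries held reads at both ends of the 2.72 Mb from Csl to Nts and at most 6 counts of any gene between them.

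**Figure D2:**
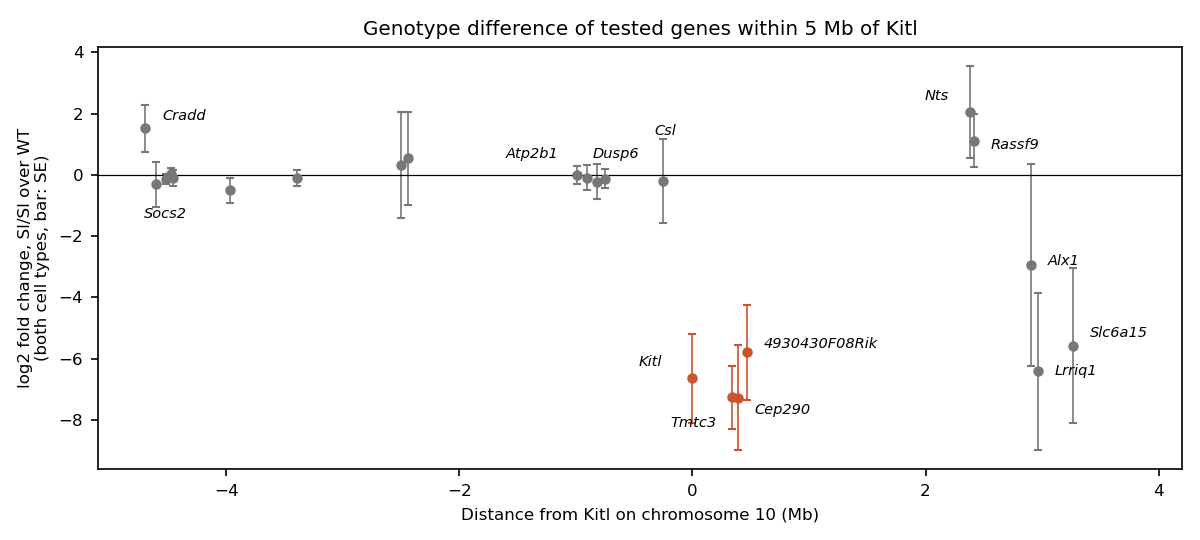
Additive log2 fold change, Sl/Sl over wild type, of the 23 tested genes within 5 Mb of Kitl, by distance from Kitl on chromosome 10 in Mb, with standard errors as bars. The 4 adjoining genes (red) lie between −7.27 and −5.79, and the genes within 1 Mb on the other side of Kitl lie between −0.22 and 0.00.

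Of the 9 tested genes within 1 Mb of Kitl, 4 had an unadjusted p under 0.05, all lower in Sl/Sl, and these were the 4 genes above. Of the 14 tested genes at 1 to 5 Mb, 1 did. This was Lrriq1, a gene of a leucine-rich repeat protein, with 36 and 82 counts in wild type endothelium and none in the other 6 libraries. It was at least 38.8-fold lower in Sl/Sl against a floor of 3 counts over the group. Lrriq1 passed the filter on low counts only through wild type endothelium, so a difference was to some extent required of it. With no read in clusters of either genotype, its difference was not a shared one. At 5 to 20 Mb, 3 of 209 genes were higher and 7 lower at that level, and beyond 20 Mb, 13 of 446 were higher and 10 lower. These bands were set after values had been seen. Over the 13908 genes, 258 (1.86%) were higher and 199 (1.43%) lower at an unadjusted p under 0.05.

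Osbpl8, which encodes a lipid transfer protein of contacts between the endoplasmic reticulum and the plasma membrane, had the second smallest p of all genes. It lies 11.0 Mb from Kitl on chromosome 10, from 110601858 to 110734303. It was at 112 and 137 CPM in wild type clusters and 63.7 and 56.7 CPM in Sl/Sl clusters, and at 80.4 and 94.4 CPM in wild type endothelium and 27.9 and 31.6 CPM in Sl/Sl endothelium. The lowest wild type library was above the highest Sl/Sl library across both cell types. The additive log2 fold change was −1.30 (standard error 0.25), with adjusted p of 1 from edgeR and 0.0067 from DESeq2. In the band at 5 to 20 Mb, genotypes did not overlap within either cell type for 2 genes that were higher and 9 that were lower in Sl/Sl, Osbpl8 among them. Over all genes tested these counts were 317 higher (2.28%) and 313 lower (2.25%), and in opposite ways in the cell types 684.

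The share of genes at an unadjusted p under 0.05 was 5.60% on chromosome 10, with 16 genes higher and 22 lower, and 6.15% on the X chromosome, with 19 higher and 12 lower, against 3.29% over all tested genes and 1.45% on chromosome 17, the lowest. Y-linked Eif2s3y averaged 46.5 CPM over the wild type and 15.9 CPM over the Sl/Sl libraries, and the part of embryo sex in the X chromosome share was not tested. Chromosome 10 held 5 of the 17 genes that DESeq2 called over the genome, namely the 4 adjoining genes and Osbpl8.

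At an adjusted p under 0.1, edgeR called 0 of 13908 genes (0%), with 457 genes at an unadjusted p under 0.05 and a smallest adjusted p of 0.466. DESeq2 on the same design called 8 genes higher (0.0575%) and 9 lower (0.0647%), 12 of them outside chromosome 10. The spread between libraries was large, with a biological coefficient of variation of 0.859 in the additive fit. The interaction of genotype and cell type also gave 0 calls (0%) with edgeR, 736 genes at an unadjusted p under 0.05 and a smallest adjusted p of 0.621, and 136 calls with DESeq2. The median additive log2 fold change was 0.0126, and 51.1% of tested genes were higher in Sl/Sl.

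The genotype differences of the cell types were close to unrelated in direction. Genotypes did not overlap in 4544 genes in clusters and in 3958 in endothelium, and 1314 genes were in both sets (28.9% of the first and 33.2% of the second, against 28.5% and 32.7% of all tested genes). Of these 1314 genes, 630 moved the same way, or 47.9%. Across the 8987 genes with 10 or more counts in every library, log2 fold changes in clusters and endothelium had a Pearson correlation of −0.015 and a Spearman correlation of −0.03, a description over genes of 8 libraries, where the comparisons share no library. Only 186 genes had all 4 Sl/Sl libraries on one side of all 4 wild type libraries, 102 higher and 84 lower, and in 19 of the former and 5 of the latter the lower genotype was at 3 counts or fewer in every library.

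**Figure D3:**
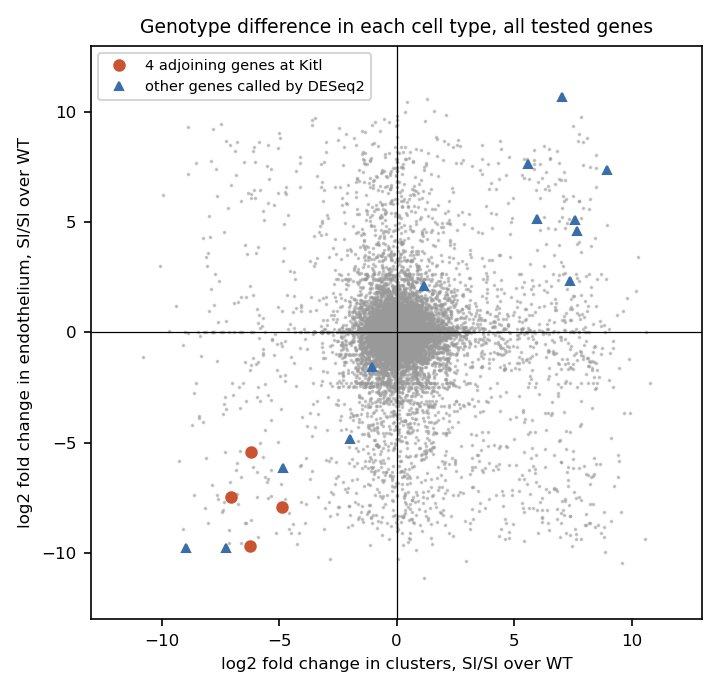
Log2 fold change with Sl/Sl in clusters (horizontal) against that in endothelium (vertical) for all 13908 tested genes (grey points), with the 4 adjoining genes at Kitl (red circles) and the other 13 genes called by DESeq2 (blue triangles). The grey points lie in all 4 quadrants, and the 17 marked genes all lie in the quadrants of shared direction. The additive test that picked them favors genes that moved the same way in both cell types, so their place is largely set by that choice.

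Of the 10 genes with the smallest p among those higher in Sl/Sl in both cell types, none passed the edgeR threshold, and 5 passed that of DESeq2. Ivd encodes isovaleryl-CoA dehydrogenase, a mitochondrial enzyme of leucine breakdown, and had reads in every library. It was at 16.8 and 16.3 CPM in wild type clusters, 43.4 and 30.4 CPM in Sl/Sl clusters, 11.9 and 12.2 CPM in wild type endothelium and 50.9 and 52.6 CPM in Sl/Sl endothelium. Every Sl/Sl library was above every wild type library. Its log2 fold change was 1.63 (standard error 0.40), with adjusted p of 1 from edgeR and 0.095 from DESeq2.

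The other 4 genes higher by DESeq2 were near 0 in wild type. Spag4, a SUN domain protein of the nuclear envelope, was counted 0 to 3 times in each wild type library, 176 and 72 times in Sl/Sl clusters and 115 and 30 times in Sl/Sl endothelium. Kctd21, of a family of adaptors of Cul3 ubiquitin ligases, had 1 count over the 4 wild type libraries, 42 and 103 in Sl/Sl clusters and 181 and 12 in Sl/Sl endothelium. Both genes were present in all 4 Sl/Sl libraries, at levels that varied widely between replicates. Prokr2, a receptor of prokineticins, had no read in wild type, 1 and 39 counts in Sl/Sl clusters and 154 and 177 in Sl/Sl endothelium. That is at least 125-fold higher against a floor of 3 counts over the wild type group. The Sl/Sl cluster library with 1 count was at the level of counting noise, so in clusters the genotypes were apart by a single read. Wscd1, which encodes a protein with a WSC domain, was at 0, 0, 18 and 2 counts in the wild type and at 19, 40, 392 and 49 counts in the Sl/Sl libraries. Such genes passed the filter on low counts only through the Sl/Sl groups, so that a difference was to some extent required of them.

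The remaining 5 of these 10 were measured in all libraries, with additive log2 fold changes of 0.87 to 1.42. Camsap2, which holds the minus ends of microtubules, was at 11.6 and 11.3 CPM in wild type and 15.8 and 39.7 CPM in Sl/Sl clusters, and at 47.0 and 32.0 against 111 and 122 CPM in endothelium. Slc38a4, an amino acid transporter gene, was at 42.9 to 76.5 CPM in the wild type and 83.4 to 125 CPM in the Sl/Sl libraries, which did not overlap. Pls3, Tmem98 and Rras, encoding an actin bundling protein, a transmembrane protein and a small GTPase of vessels, had log2 fold changes of 1.00, 0.94 and 1.12. The difference of these 3 was 1.42 to 1.63 in clusters and 0.47 to 0.62 in endothelium, and none passed the adjusted interaction test with edgeR. All 3 were higher in endothelium than in clusters of the same genotype, and the endothelial markers in clusters were at 944 and 214 CPM in wild type and 2167 and 498 CPM in Sl/Sl libraries. The part of endothelial cells in the cluster gate in these differences was not tested.

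**Figure D4:**
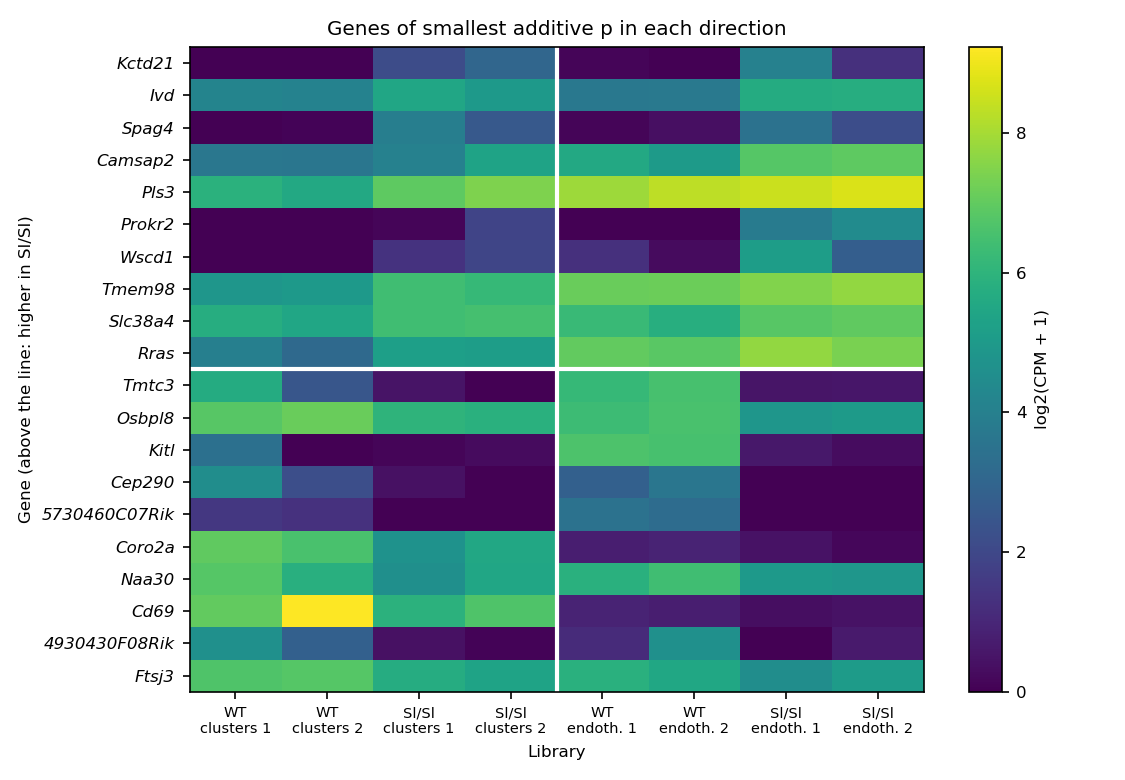
Levels of the 10 genes with the smallest additive p among those higher (above the horizontal line) and lower (below it) in Sl/Sl, as log2(CPM + 1) by color, in the 8 libraries in columns (endoth., endothelium). The vertical line parts the cell types, and within each the upper genes are brighter in the Sl/Sl columns, as for Ivd at 11.9 to 16.8 CPM in wild type and 30.4 to 52.6 CPM in Sl/Sl.

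Of the 10 genes with the smallest p among those lower in Sl/Sl, 5 were the chromosome 10 genes already described, and the others were 5730460C07Rik, Coro2a, Naa30, Cd69 and Ftsj3. 5730460C07Rik, on chromosome 3 from 153452269 to 153455051, resembled the Kitl interval in its pattern, counted 21 and 19 times in clusters and 129 and 85 times in endothelium of the wild type, with no read in any Sl/Sl library. It was at least 83.5-fold lower in Sl/Sl against a floor of 3 counts over the group, with adjusted p of 1 from edgeR and 0.020 from DESeq2. Like the genes of that interval, 5730460C07Rik passed the filter on low counts only through the wild type groups. A difference was thus to some extent required of it. Naa30, the catalytic subunit of an N-terminal acetyltransferase, was at 110 and 55.5 CPM in wild type clusters and 57.6 and 83.7 CPM in wild type endothelium, and at 23.5, 43.0, 31.1 and 27.5 CPM in the Sl/Sl libraries, all below the lowest wild type value. Ftsj3, an RNA methyltransferase of ribosome assembly, was at 102 and 111 against 51.7 and 39.9 CPM in clusters and at 56.5 and 43.9 against 22.2 and 32.4 CPM in endothelium. Their log2 fold changes were −1.29 (standard error 0.34) and −1.05 (standard error 0.28), with adjusted p of 1 from edgeR.

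Coro2a and Cd69 were cluster genes in these data. Cd69, an early activation antigen of leukocytes, was at 128 and 601 CPM in wild type clusters and 59.6 and 102 CPM in Sl/Sl clusters, and under 1 CPM in endothelium in both genotypes. Coro2a, a coronin that binds actin, was at 126 and 94.7 CPM against 25.0 and 46.0 CPM in clusters, and also under 1 CPM in endothelium. For both genes the shared direction rested, on the endothelial side, on 1 to 11 counts per library. Their additive log2 fold changes were −1.96 (standard error 0.52) and −1.65 (standard error 0.43), and neither passed adjustment with edgeR or DESeq2. Without wild type clusters replicate 2, the library at 601 CPM, the value of Cd69 was −0.97.

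Ranked by the smaller of the 2 cell types' log2 fold changes among non-overlapping genes, the top 5 genes higher in Sl/Sl were Kctd21, Prokr2, Srcrb4d, Zfp964 and Prok2, and the top 5 lower ones Tmtc3, Cep290, 4930430F08Rik, 5730460C07Rik and Gm5113. Prok2 encodes a prokineticin, a ligand of the receptor Prokr2, and had no read in wild type and 13, 24, 1 and 21 counts in the Sl/Sl libraries. That is at least 19.9-fold higher over the group, but the library with 1 count, in Sl/Sl endothelium, was at the level of counting noise. Srcrb4d had 43, 42, 22 and 16 counts and Zfp964 55, 1, 1 and 91 counts in the Sl/Sl libraries, against none in wild type. The libraries with 1 count of Zfp964, in clusters and in endothelium, were at the level of counting noise too. DESeq2 called none of Srcrb4d, Zfp964, Prok2 and Gm5113. These genes too passed the filter on low counts only through the genotype in which they were higher. The other 6 genes that DESeq2 called were Rinl, Vwce and Foxs1, lower, and Ntf3, Lurap1l and Meox2, higher. Apart from Meox2, they fell outside the naming rule and are named because the count is small. Meox2, a homeobox gene of mesenchyme and vessels, was at 0 or 1 count in each wild type library and at 48, 16, 232 and 2 counts in the Sl/Sl libraries. It also passed the filter only through Sl/Sl libraries.

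Kit signaling genes were split in direction. Of 45 tested members, which take in the ligand, the receptor, adaptors, kinases and transcriptional targets, 20 were higher and 25 lower in Sl/Sl, 21 moved the same way in both cell types, and the median log2 fold change was −0.09 against 0.01 for all genes. By edgeR 0 were called, and 1, Kitl, was called by DESeq2. In both cell types 4 members were lower without overlap (Kit, Lyn, Pik3cd and Akt2, the last 3 also named after their values were seen) and 0 were higher, against 2.25% and 2.28% of all tested genes. Kit, the receptor, which was also a sort marker and is named here after its values were seen, was at 379 and 252 CPM in wild type clusters and 241 and 225 CPM in Sl/Sl clusters, and at 84.7 and 75.7 against 66.8 and 64.1 CPM in endothelium. The genotypes did not overlap in either cell type, at a log2 difference of −0.36 with a standard error of 0.19, an unadjusted p of 0.084 and an adjusted p of 1 from edgeR. Wild type clusters replicate 1, at 379 CPM for Kit, also held the highest germ cell marker sum, at 367 CPM. The part of germ cells in the difference of Kit was not tested. Foxo3, a transcription factor that Akt holds out of the nucleus, was the higher member with the smallest p, with 0 or 1 count in wild type libraries and 33, 5, 31 and 0 in Sl/Sl libraries. It passed the filter on low counts only through Sl/Sl libraries.

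Hematopoietic genes were lower in more cases than higher. Of 66 tested members 52 were lower and 14 higher, with a median log2 fold change of −0.34 (−0.35 in clusters and −0.46 in endothelium), 0 calls by either tool, and 9 members lower and 2 higher without overlap in both cell types, where 2.25% and 2.28% of all tested genes were. Summed over the list, clusters held 7910 and 10200 CPM (wild type) against 6875 and 8095 CPM (Sl/Sl), which overlapped. Endothelium held 2016 and 1919 CPM (wild type) against 2030 and 1903 CPM (Sl/Sl). The negative median there thus came without a lower sum. Members that moved the same way in both cell types were 31 of 66, against 49.5% of all genes with reads in both. The summed hematopoietic markers, beside these counts, were at 1339 and 1329 CPM in wild type and 973 and 1017 CPM in Sl/Sl clusters, and their part in the result was not tested. Ikzf1, the transcription factor Ikaros, was at 261 and 355 CPM in wild type clusters and 71.6 and 152 CPM in Sl/Sl clusters, and at 2.31 and 1.41 against 1.31 and 0.953 CPM in endothelium. The log2 fold change of Ikzf1 was −1.16 (standard error 0.34), with adjusted p of 1 from edgeR. Elane, the neutrophil elastase gene and a marker of granulocyte precursors, went the other way, at 0.949 and 2.34 CPM in wild type and 98.7 and 47.3 CPM in Sl/Sl clusters, with 0.636 to 1.43 CPM in endothelium of both genotypes. Its log2 fold changes were 5.46 in clusters and 0.55 in endothelium, and the interaction passed adjustment with DESeq2 and not with edgeR.

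Endothelial genes were higher in 57 of 68 members, with a median of 0.51, but the median was 0.92 in clusters and 0.10 in endothelium, and no member was apart in both cell types. The member with the smallest p, Flt1, a receptor of vascular endothelial growth factors, was at 97.2 and 107 CPM in wild type and 164 and 162 CPM in Sl/Sl endothelium, while in clusters 15.3 and 15.7 CPM overlapped with 40.2 and 14.8 CPM. Without Sl/Sl clusters replicate 1, which had the highest endothelial marker sum among clusters at 2167 CPM, the list's median was −0.02. The mesenchymal median of 0.40 over 27 genes was −1.51 without Sl/Sl clusters replicate 2, and the muscle median of 1.82 over 15 genes was −0.10 without it.

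Ribosomal protein genes were lower in 72 of 76 members, with a median of −0.13 (−0.18 in clusters and −0.06 in endothelium). Rps12 was lower by more, at a log2 fold change of −0.96 (standard error 0.53), with all Sl/Sl libraries below all wild type libraries. No member had an unadjusted p under 0.05, and 5 were lower and 0 higher without overlap in both cell types, against 2.25% and 2.28% of all tested genes. Mitosis genes were higher in 38 of 46, with a median of 0.23, but of −0.07 in clusters and 0.64 in endothelium, and 17 of 46 moved the same way. Prc1, a microtubule bundler of the spindle midzone, was the clearest of them, at 146 and 179 against 231 and 203 CPM in clusters and 74.4 and 119 against 228 and 193 CPM in endothelium (additive difference 0.77 with a standard error of 0.24 on the log2 scale, adjusted p of 1 by edgeR). All Sl/Sl libraries lay above all wild type libraries for Prc1.

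**Figure D5:**
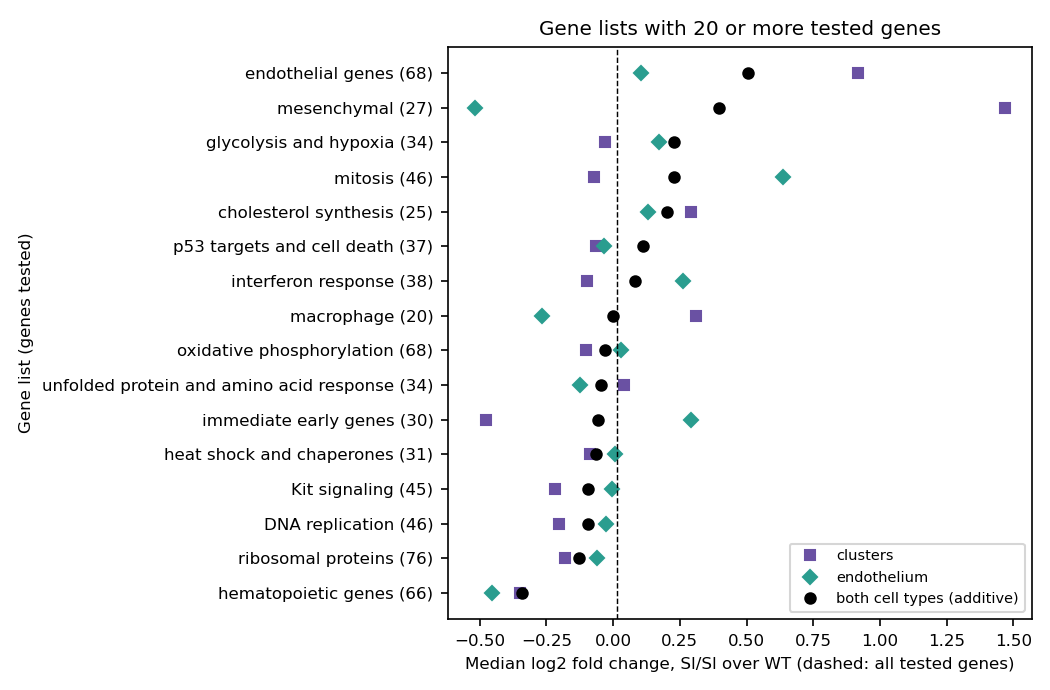
Median log2 fold change with Sl/Sl of the gene lists with 20 or more tested genes (number in parentheses), in clusters (squares), endothelium (diamonds) and in the additive fit (circles), with the median of all tested genes as a dashed line at 0.0126. Lists left of the line in both cell types are hematopoietic, ribosomal protein, Kit signaling, DNA replication, p53 target and heat shock genes. Mesenchymal and mitosis genes are among those on opposite sides in the 2 cell types.

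Cholesterol synthesis genes were higher in 18 of 25, with medians of 0.29 in clusters and 0.13 in endothelium. Fdps, which makes farnesyl diphosphate, had the smallest p there (log2 fold change 0.44, standard error 0.20). Heat shock genes had a median of −0.06, with Hspa4, a co-chaperone of Hsp70, lower in both cell types without overlap (log2 fold change −0.54, standard error 0.18). Glycolysis and hypoxia genes had a median of 0.23 (−0.03 in clusters and 0.17 in endothelium). Hk2, a hexokinase of the first step of glycolysis, was lower, at 170 and 196 against 100 and 141 CPM in clusters and 28.8 and 40.1 against 8.32 and 17.2 CPM in endothelium. Its log2 fold change was −1.01 (standard error 0.32). Each of Fdps, Hspa4 and Hk2 had an adjusted p of 1 from edgeR.

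Interferon response genes had a median of 0.08, and Ifi27, an interferon-inducible gene, had no shared separation. It was at 0.159 and 0.404 CPM in wild type and 27.9 and 15.4 CPM in Sl/Sl endothelium, while in clusters 9.92 and 22.4 CPM overlapped with 17.6 and 36.0 CPM. Ifi27 overlaps Ifi27l2a on the other strand. Medians were 0.11 for p53 targets and cell death genes (37 tested), −0.05 for the unfolded protein response (34), −0.06 for immediate early genes (30), −0.03 for oxidative phosphorylation (68), −0.09 for DNA replication (46) and −0.00 for macrophage genes (20). In none of these lists did edgeR call a member. Medians in clusters and endothelium were −0.48 and 0.29 for immediate early genes, of which 8 of 30 moved the same way. They were 0.31 and −0.27 for macrophage genes and −0.10 and 0.26 for interferon response genes. For p53 targets and cell death genes they were −0.07 and −0.03, both below 0 unlike the additive median. Erythroid, germ cell, hepatocyte, neural and sex lists had 5 to 13 tested genes, with medians of 0.26, −0.33, −0.81, 0.27 and −2.05. The sex list holds Xist and Y-linked genes, and the part of embryo sex in its median was not tested.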

How the data were processed

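The authors sorted 100 cells per library, made SMARTSEQ2 libraries, aligned 75 bp read pairs to mm9 with STAR 2.4.2a, merged lanes and counted reads per gene with featureCounts of Subread 1.4.5. What they deposited is a table of raw, unscaled counts for each gene. The annotation, the strand setting and the handling of reads with several matches are not given in the sources used here. Date-like entries stood in place of 27 gene symbols and were tested with the rest.

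Libraries were grouped by their labels. Counts were tested with edgeR 4.0.16 in R 4.3.3 (TMM scaling, filterByExpr on the 4 groups, glmQLFit and glmQLFTest) on cell type plus genotype, and on a model with their interaction, which also gave the log2 fold change in each cell type. Benjamini-Hochberg adjusted p under 0.1 was a call. DESeq2 1.42.0, limma 3.58.1 and other settings were alternatives. The scripts were tested on simulated data. CPM used TMM-scaled totals. An exact permutation of genotypes within cell types has 36 arrangements and a smallest two-sided p of 0.0556, and was not used. Ratios of summed counts carry exact 95% intervals, and 3 counts were the floor for 0.

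Named genes were Kitl, the 10 higher and 10 lower genes of smallest p that moved the same way, the 5 higher and 5 lower genes with the largest smaller fold among non-overlapping genes, genes within 5 Mb of Kitl with an unadjusted p under 0.05, and the leading members of each list. The comparison and the lists were chosen with earlier results of these data known. The promoter stretch came from RefSeq (GRCm38.p6). Genes counted at copies over 2.5 Mb apart or on several chromosomes were given no place. One gene that the rule would name is not reported here.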

Additional observations from a re-analysis of the deposited data

How the results depend on the processing

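With edgeR, 0 additive calls were also obtained with RLE scaling, at least 10 counts in every library and a threshold of 0.05. A robust edgeR fit and the mean effect of an edgeR model with interaction also gave 0. So did limma-voom with or without pools. Additive calls numbered 109 without a filter on low counts, 17 with DESeq2, and 0 to 2 when 1 library was left out (the 2, Kitl and Tmtc3, without wild type clusters replicate 2). Interaction calls numbered 179 without a filter, 136 with DESeq2, and 0 to 27 when 1 library was left out (27 without wild type clusters replicate 1, 3 without Sl/Sl clusters replicate 2 and 1 without Sl/Sl endothelium replicate 2). Genes apart the same way in both cell types numbered 414 with at least 10 counts in every library, where 8987 genes were tested, and 1201 to 1480 with 1 library left out, where 1 group then holds a single library that is assumed to vary like the others. The share of genes moving the same way lay between 46.4% and 51% over its settings, which were chosen after seeing the data. The causes of these differences were not tested.

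The log2 fold changes of Kitl, Tmtc3, Cep290 and 4930430F08Rik were negative with each library left out (−7.46 to −6.06, −7.98 to −6.43, −9.91 to −6.83 and −6.95 to −4.83), as that of Osbpl8 was (−1.41 to −1.18). A fit on at least 10 counts in every library could not include the first 4. Of the genes reported, 5 changed sign in 7 fits. Xist was at −0.098 with limma-voom and −0.091 with pools. With 1 library left out, values ran from −0.27 (without Sl/Sl endothelium replicate 2) to 0.61 for Xist, from −4.60 to 0.50 for Ddx3y and −5.99 to 0.51 for Kdm5d (both without wild type clusters replicate 1 at the upper end), from −0.019 (without Sl/Sl clusters replicate 1) to 0.56 for Ifitm3, and from −7.20 to 0.22 (without wild type endothelium replicate 1) for Tcf21.

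Same-numbered libraries of the genotypes had deviations that correlated at 0.157 in clusters and −0.0025 in endothelium, so the numbers were not treated as pairs. With the replicate block, 0 additive and 0 interaction calls were made, and with a replicate block within each cell type 1, Tmtc3. At 100 cells and 2 libraries a group, genes at a few counts in 1 genotype are limited by counting error.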
